A study of Mus musculus with 72 samples.

Results

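The genes for ionotropic and metabotropic GABA and glutamate receptors were described in the suprachiasmatic nucleus (SCN), the small paired nucleus of the anterior hypothalamus that acts as the master circadian clock of mammals. They were chosen by symbol, as every gene of the deposited SCN count table whose symbol begins with Gabr, Gabbr, Gria, Grin, Grik or Grm, which gave 38 of 15759 genes. Of these, 13 encode GABA-A receptor subunits, 2 GABA-B subunits, 4 AMPA, 6 NMDA and 5 kainate receptor subunits, and 7 metabotropic glutamate (mGlu) receptors. The remaining gene, Grina, shares the prefix but encodes a membrane protein that is not a receptor subunit. The filter on low counts removed no gene of the table, so all 38 were tested.

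Nearly all SCN neurons release GABA and also receive it from each other. GABA-A receptors are pentameric chloride channels, usually built from alpha, beta and gamma subunits, and GABA-B receptors are obligate dimers that act through G proteins on potassium and calcium channels. Glutamate reaches the SCN mainly from the retina through the retinohypothalamic tract, and there opens AMPA and NMDA receptors, through which light resets the clock. Kainate and mGlu receptors modulate release and excitability.

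The libraries came from C57BL/6J mice (labelled genotype c57bl/6) that were 8 to 12 weeks old when purchased and carried no transgene or deletion per the labels. One arm ate a diet free of methionine and choline (MCD) and the other its isocaloric control, both without restriction for 11 days. All mice were single-housed for 10 days under a 12:12 h light and dark cycle, and were killed in constant darkness on the following day, every 4 h from circadian time (CT) 0 to CT20, where CT0 to CT12 is the subjective day. This gave 12 groups of diet and time with 3 mice each, 2 males and 1 female, and 36 libraries in all, 18 per diet and 6 per time. The general protocol text speaks of male mice only, while the sample labels and the design text name the females. The SCN was cut by laser from 23 stained sections of 25 µm per brain, and libraries were made from polyadenylated RNA with a strand-marking kit. In such tissue RNA, fewer cells of a type and less RNA per cell cannot be told apart.

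Total counts per library were between 23.3 and 79.8 M (M stands for 1000000 counts), with a median of 57 M. All 14 SCN neuron markers were in the table, and their summed level was between 3448 and 6377 CPM (counts scaled to a library total of 1000000). Of 12 markers of the surrounding hypothalamus 8 were in the table, with a sum of 82.8 to 282 CPM, and the 10 oligodendrocyte markers summed to 1288 to 2589 CPM. In 3 female libraries, control CT4, control CT20 and MCD CT4, the median correlation with the other libraries was under 0.9, and 538 to 804 genes were at 0 against 230 at most elsewhere. Calls of named receptor genes that were lost without these 3 libraries are given below with that value. Replicates of every group differed by at least 24.1 times the sampling noise (chi-square per degree of freedom), so no library was counted as a copy of another.

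To compare levels between genes, CPM were divided by the length of the longest coding transcript in kilobases (kb). The GABA-B subunit gene Gabbr1, whose protein binds GABA, had the highest level of the receptor genes, with 133, 154 and 196 CPM per kb in the lowest, the median and the highest of 36 libraries. Its partner Gabbr2, whose protein couples to the G protein, had 23.6, 26.9 and 33.2 CPM per kb. The ranges of both subunits did not overlap. Grina followed Gabbr1 in the order, with a median level of 128 CPM per kb, and was below it in 35 of 36 libraries.

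Among AMPA subunit genes, Gria1 had a level of 67.9, 78.7 and 103 CPM per kb in the lowest, median and highest library. Gria2, whose subunit makes AMPA receptors largely impermeable to calcium, had a median of 18.4, Gria4 of 17.7 and Gria3 of 2.62 CPM per kb. Gria1 was therefore the leading AMPA gene by this scale, while Gria2 and Gria4 lay close together in the order. The obligatory NMDA subunit gene Grin1 had a median of 43.8 CPM per kb, and the glycine- and glutamate-site partners were all lower, with Grin2c at 16.0, Grin3a at 5.35, Grin2d at 2.85, Grin2b at 2.03 and Grin2a at 0.328 CPM per kb. The place of Grin2b rests on its annotated transcript of 24060 bases. With its shortest coding transcript its level was 19.9 CPM per kb, above the 18.3 CPM per kb that Grin2c had on that scale.

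Kainate receptor genes were led by Grik5, whose high-affinity subunit forms channels only with other kainate subunits, at a median of 35.3 CPM per kb, and Grik4 was the lowest at 3.40 CPM per kb. Among the GABA-A genes reported here Gabrg1 (28.8 CPM per kb) and Gabra3 (28.1) had the highest median levels. Gabrg1 was above Gabra3 in 18 of 36 libraries, so this pair did not have a fixed order. The lowest gene of each class was Gabrg3 (10.1), Gabra4 (5.30) and Gabrb2 (4.99 CPM per kb), and the epsilon and theta subunit genes Gabre and Gabrq had 10.9 and 8.19 CPM per kb. Gabrg3 and Gabra4 rank much higher, at 57.4 and 49.5 CPM per kb, if their shortest coding transcripts are used. On that scale Gabrb2 had 12.9 CPM per kb, above Gabrb1 at 7.87, and Gabrq had 20.2, above Gabre at 10.9. The mGlu genes ran from Grm5 (6.42), a receptor that couples to phospholipase C, through Grm3 (3.85) and Grm7 (2.95), to Grm8 (0.923) and Grm2 (0.606 CPM per kb). Grm2 was at 0 counts in 3 libraries, those of the female mice at control CT0, control CT20 and MCD CT4.

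**Figure D1:**
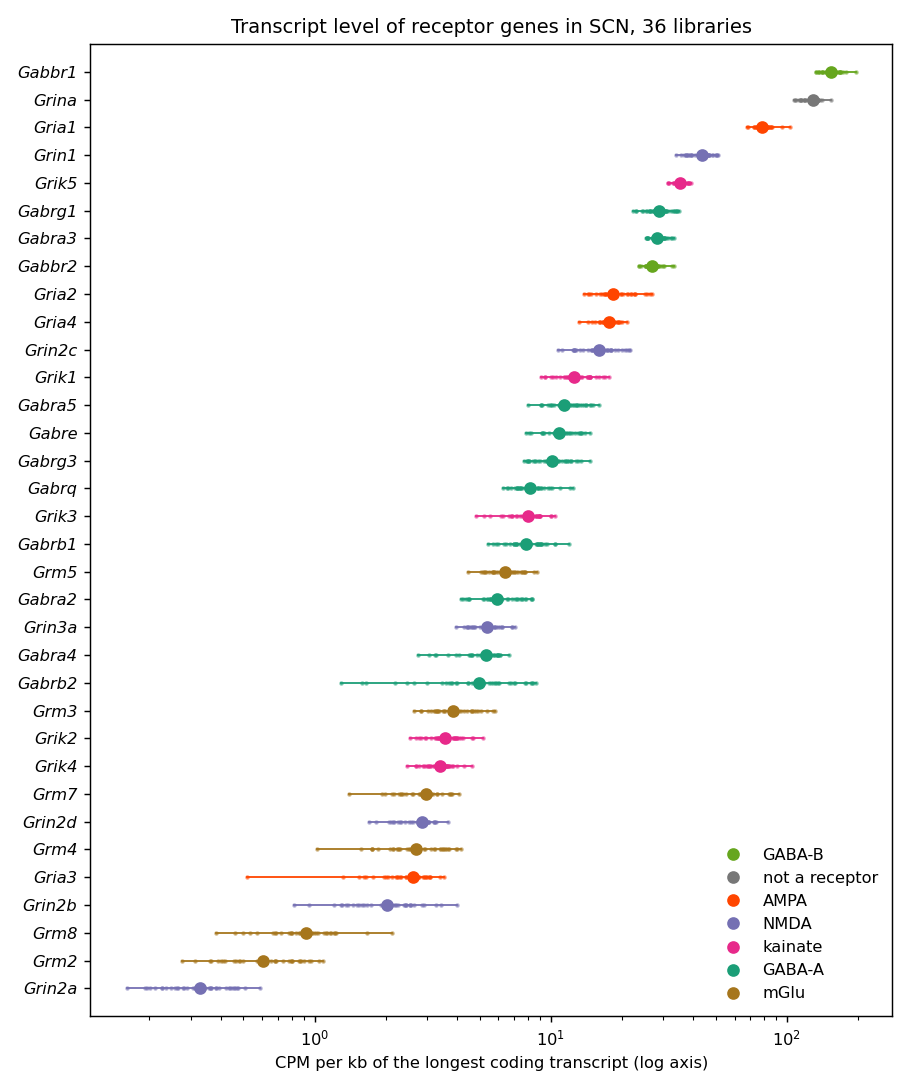
Level of each receptor gene in CPM per kb of its longest coding transcript on a log axis. Small points are the 36 libraries (values of 0 for Grm2 are not drawn), large points the medians, colours the receptor class. Gabbr1 leads the receptors at 154 CPM per kb and Grin2a is the lowest at 0.328 CPM per kb.

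The first comparison asked which receptor transcripts followed a 24 h cycle over both diets. A cosine and a sine of 24 h were tested together in edgeR's quasi-likelihood model with a term for sex, with Benjamini-Hochberg adjustment over all 15759 genes and a threshold of 0.05. By this test 20 of the 38 genes cycled, against a background of 34.4% of all genes, and the peak-to-trough range had a median of 0.28 log2 units over the 38 genes and 0.27 over all genes. Cycling genes were found in every class, with 8 of 13 GABA-A, 1 of 2 GABA-B, 1 of 4 AMPA, 3 of 6 NMDA, 2 of 5 kainate and 4 of 7 mGlu genes, and Grina. Without the 3 libraries that stand apart 21 genes were called, of which 18 were among the 20.

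Of the 9 cycling GABA receptor genes, 7 peaked in the subjective day, between CT0 and CT12. Of the 10 cycling glutamate receptor genes, 3 did so and 7 peaked in the subjective night. Among all 5425 cycling genes of the table, 50.8% peaked in the subjective day. These are counts of few genes whose fitted peaks spread over the cycle, as the plot of group means by time shows.

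**Figure D2:**
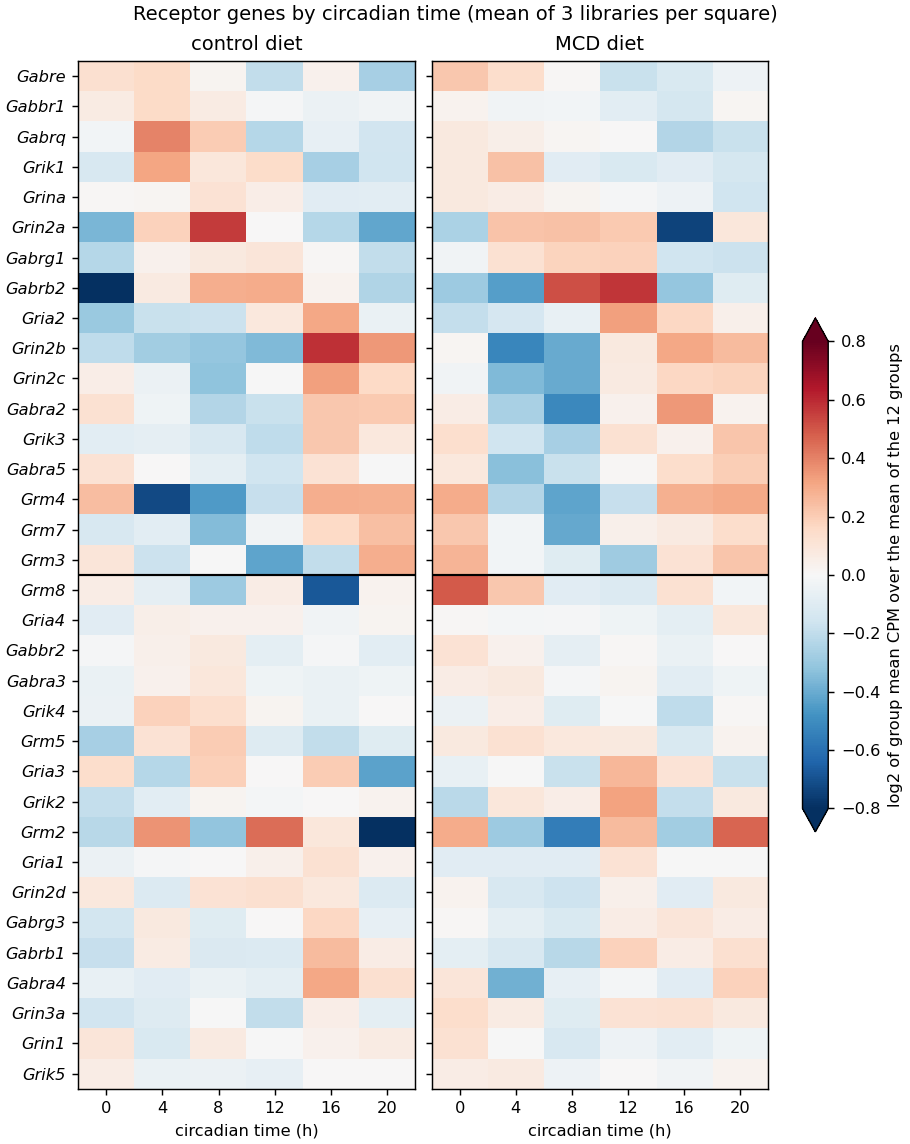
Mean CPM of 3 libraries at each circadian time (h) on the control diet (left) and the MCD diet (right), as log2 of its ratio to the mean of the 12 groups. The 17 genes drawn above the black line were called as cycling over both diets and are ordered by fitted peak time, from Gabre at CT2.61 to Grm3 at CT22.26; the 17 below were not called.

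The mGlu receptor genes Grm4, Grm7 and Grm3 peaked at night. Grm4, a group III presynaptic receptor, had 4.73, 9.43 and 13.5 CPM in the lowest, median and highest of the 6 libraries at CT4. At CT16 it had 11.3, 16.2 and 18.5 CPM. Levels at CT0, CT16 and CT20 were high and those at CT4 and CT8 low, with some overlap between CT4 and CT16. The fitted peak was at CT19.22 ± 0.59 h (SE) with a range of 0.92 ± 0.14 log2 units (SE, n = 36; edgeR adjusted p = 1.72e-05). Grm7, another group III receptor, peaked at CT19.39 ± 1.10 h with a range of 0.47 log2 units (edgeR adjusted p = 0.0276), and Grm3, a group II receptor also found on astrocytes, at CT22.26 ± 0.96 h with a range of 0.47 (edgeR adjusted p = 0.00529). The call of Grm7 was lost without control CT8 library b, control CT20 replicate 1, MCD CT8 replicate 2 or MCD CT20 replicate 1, with an adjusted p of up to 0.0634.

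The NMDA receptor genes Grin2a, Grin2b and Grin2c, which encode the glutamate-binding subunits that set the channel's kinetics, did not share a phase. Grin2c had 54.4, 61.2 and 66.8 CPM at CT8 and 73.6, 95.0 and 106 CPM at CT16, and these ranges did not overlap. It peaked at CT18.02 ± 0.59 h with a range of 0.56 ± 0.09 log2 units (edgeR adjusted p = 1.8e-05). Grin2b had 19.8, 36.2 and 63.3 CPM at CT4 and 48.8, 63.5 and 96.8 CPM at CT16. It was thus low by day and high by night with wide overlap, and its fitted peak was at CT17.72 ± 0.75 h with a range of 0.91 ± 0.18 log2 units (edgeR adjusted p = 0.00132). Without the female libraries its range was 0.60 log2 units (edgeR adjusted p = 0.0632). Grin2a, a gene of low level, had 4.05, 6.57 and 8.60 CPM at CT8 and 2.81, 3.45 and 4.57 CPM at CT16, also with slight overlap. Its fitted peak was at CT7.33 ± 0.93 h with a range of 0.76 ± 0.19 log2 units (edgeR adjusted p = 0.00506), so Grin2a was high at the times when Grin2b and Grin2c were low. Grin1, Grin2d and Grin3a were not called, with adjusted p of 0.28, 0.818 and 0.669.

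Of the AMPA and kainate genes, Gria2 was called as cycling late in the cycle. It had 143, 168 and 194 CPM at CT0 and 180, 244 and 273 CPM at CT16, ranges that overlapped slightly, and a fitted peak at CT14.39 ± 0.67 h with a range of 0.49 ± 0.09 log2 units (edgeR adjusted p = 0.000117). Gria1, Gria3 and Gria4 were not called (edgeR adjusted p of 0.0807, 0.589 and 0.982), though Gria1 was with library totals in place of TMM (0.0291). The kainate subunit gene Grik1 was highest at CT4, with 52.8, 56.1 and 64.5 CPM, and lowest at CT16, with 36.7, 40.4 and 52.3 CPM. Its ranges at these times did not overlap, and its fitted peak was at CT5.12 ± 1.03 h (range 0.36 log2 units, edgeR adjusted p = 0.00698). Grik3 peaked on the opposite side of the cycle, at CT18.97 ± 1.15 h (range 0.36, edgeR adjusted p = 0.0283), and lost its call without the 3 libraries that stand apart (0.118). It also lost it without control CT4, control CT20, MCD CT8 or MCD CT20 replicate 3 or control CT8 library b, each left out alone, with an adjusted p of up to 0.0699. Without the female libraries its range in the edgeR fit was 0.19 in place of 0.348 log2 units (edgeR adjusted p = 0.427).

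**Figure D3:**
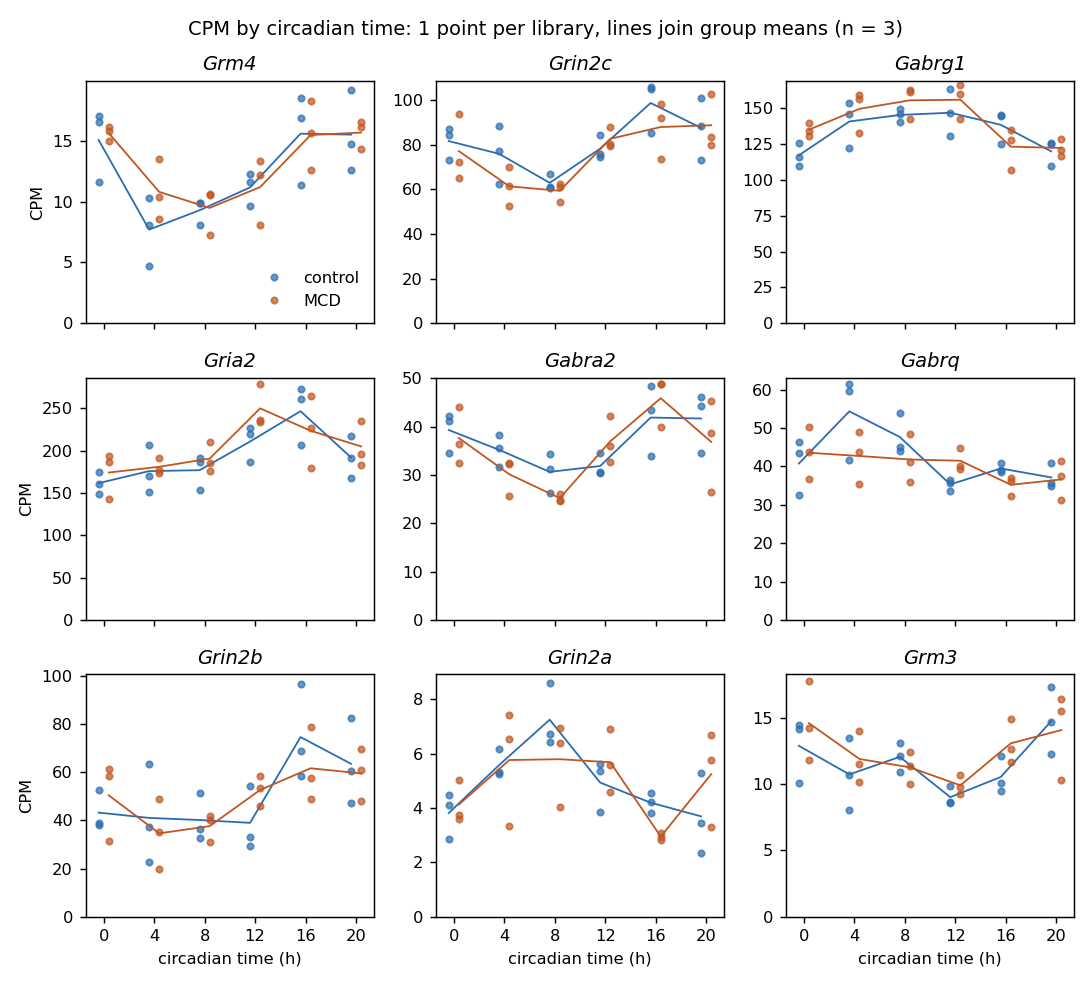
CPM against circadian time (h) for 9 of the receptor genes with the smallest adjusted p for a 24 h cycle over both diets, 1 point per library, lines joining group means of 3 libraries, blue for control and orange for the MCD diet. Grm4, Grin2c, Gria2, Gabra2 and Grin2b have their fitted peaks between CT14.39 and CT19.22, and Gabrq, Grin2a and Gabrg1 theirs between CT4.87 and CT8.70; Grm3 peaks at CT22.26.

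Among GABA-A genes the gamma subunit gene Gabrg1 was highest around the end of the subjective day. Gabrg1 had 130, 153 and 166 CPM at CT12 and 110, 123 and 129 CPM at CT20, ranges that did not overlap, and peaked at CT8.70 ± 0.64 h with a range of 0.35 ± 0.06 log2 units (edgeR adjusted p = 8.15e-05). The alpha gene Gabra2 was in the opposite phase, with 24.5, 26.2 and 34.4 CPM at CT8 and 33.9, 45.9 and 48.9 CPM at CT16. These ranges overlapped slightly. Gabra2 peaked at CT18.90 ± 0.77 h with a range of 0.53 ± 0.11 log2 units (edgeR adjusted p = 0.000187). Gabra5, known for extrasynaptic receptors, peaked nearby at CT19.10 ± 1.30 h (range 0.31, edgeR adjusted p = 0.0431). Its call lay close to the threshold and was lost in 16 of the 36 fits that left out 1 library, with an adjusted p of up to 0.112.

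The X-linked genes Gabrq and Gabre, which encode the theta and epsilon subunits found mainly in hypothalamus and brainstem, were both highest in the early subjective day. Gabrq had 35.4, 46.3 and 61.5 CPM at CT4 and 31.1, 36.5 and 41.3 CPM at CT20, with a fitted peak at CT4.87 ± 0.82 h (range 0.38 ± 0.08 log2 units, edgeR adjusted p = 0.000749). Gabre had 47.7, 54.5 and 60.2 CPM at CT0 and 35.0, 43.3 and 50.4 CPM at CT20, and peaked at CT2.61 ± 0.98 h (range 0.32, edgeR adjusted p = 0.00593). The ranges of both genes overlapped between these times. The beta gene Gabrb2 had the widest fitted range of the called genes, 1.11 ± 0.29 log2 units, with 5.18, 11.8 and 21.8 CPM at CT0 and 16.0, 28.8 and 34.5 CPM at CT8 (peak at CT10.79 ± 1.00 h, edgeR adjusted p = 0.0121). It varied widely between libraries of 1 time, and without the female libraries its adjusted p was 0.0849. Gabbr1 changed by only 0.14 ± 0.03 log2 units around a peak at CT3.11 ± 0.91 h (edgeR adjusted p = 0.0192, and 0.0502 without control CT4 replicate 1; it was also lost when library totals replaced TMM scaling). Grina, with a range of 0.17 log2 units (edgeR adjusted p = 0.0434), was lost without the 3 libraries that stand apart (0.144) and in 21 of the 36 fits without 1 library.

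**Figure D4:**
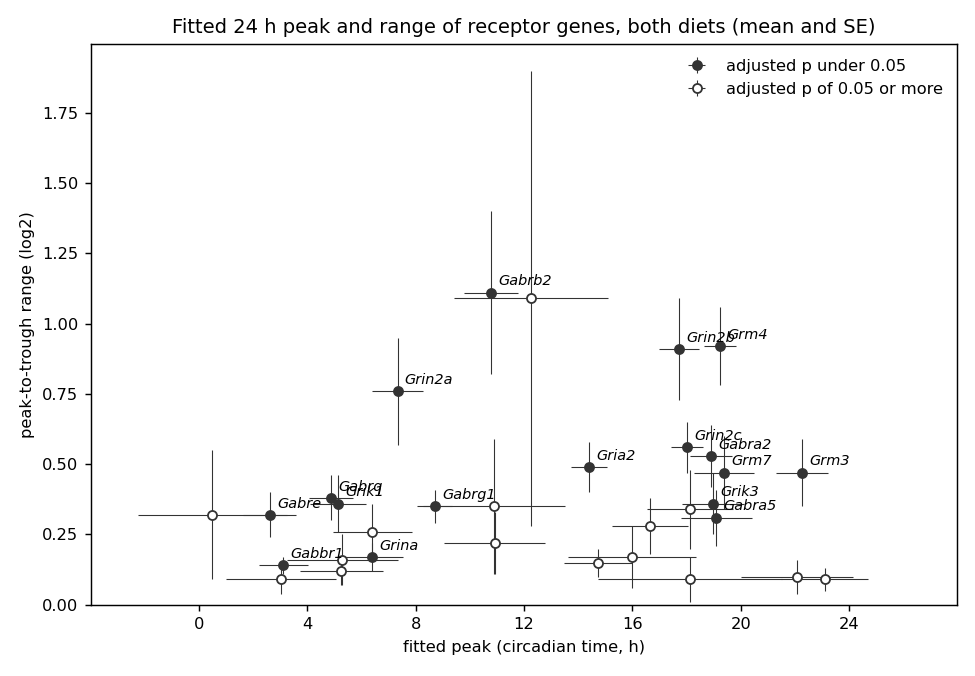
Fitted peak time (h) and peak-to-trough range (log2 units) over both diets, with standard errors, for 32 genes; 2 genes with a standard error of the peak of 4 h or more are not drawn. Filled points were called (adjusted p under 0.05). Grin2a at CT7.33 and Grin2b at CT17.72 lie on opposite sides of the cycle, as do Gabrg1 at CT8.70 and Gabra2 at CT18.90.

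GABA-A subunit genes lie in clusters on the mouse chromosomes, and neighbours could be compared for phase. In the chromosome 5 cluster, the neighbours Gabrg1 and Gabra2 peaked at CT8.70 and CT18.90, and Gabra4 and Gabrb1 were not called by edgeR's quasi-likelihood test (adjusted p of 0.13 and 0.0533). That of Gabrb1 changed with the setting: it was called by DESeq2 (adjusted p = 0.0301), with library totals in place of TMM (edgeR, 0.0433) and with exon-bin counts (edgeR, 0.031). Gabra4 was called with exon-bin counts (edgeR adjusted p = 0.0211). On chromosome 7, Gabra5 was called and its neighbour Gabrg3 was not (adjusted p = 0.438). The X chromosome cluster held Gabre and Gabrq, both called, and Gabra3, which was not (edgeR adjusted p = 0.187, and 0.025 without the female libraries). Gabre and Gabrq thus both peaked in the early subjective day, while Gabrg1 and Gabra2 peaked on opposite sides of the cycle.

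The promoters of the cycling genes with the smallest adjusted p that have a sequence in the RefSeq promoter table (build GRCm38.p6) are shown because their transcripts peaked at different times, from Gabrg1 by day to Gria2, Grin2c and Gabra2 by night. Each is the 250 bases before the annotated start, 5′ to 3′ on the gene's strand, at chr11:115267244-115267493 for Grin2c, chr5:70842618-70842867 for Gabrg1, chr3:80802836-80803085 for Gria2 and chr5:71095850-71096099 for Gabra2, all on the minus strand. Capitals mark GC boxes (GGGCGG) and CCAAT boxes on either strand.
Grin2c: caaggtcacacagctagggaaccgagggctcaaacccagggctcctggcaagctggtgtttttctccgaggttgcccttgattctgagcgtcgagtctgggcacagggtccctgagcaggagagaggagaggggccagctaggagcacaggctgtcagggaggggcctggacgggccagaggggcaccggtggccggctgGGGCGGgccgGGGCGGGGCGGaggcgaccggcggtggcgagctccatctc
Gabrg1: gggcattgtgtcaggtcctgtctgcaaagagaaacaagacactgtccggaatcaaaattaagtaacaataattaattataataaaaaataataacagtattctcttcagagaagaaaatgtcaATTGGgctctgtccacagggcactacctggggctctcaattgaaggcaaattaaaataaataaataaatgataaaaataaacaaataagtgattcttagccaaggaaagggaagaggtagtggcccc
Gria2: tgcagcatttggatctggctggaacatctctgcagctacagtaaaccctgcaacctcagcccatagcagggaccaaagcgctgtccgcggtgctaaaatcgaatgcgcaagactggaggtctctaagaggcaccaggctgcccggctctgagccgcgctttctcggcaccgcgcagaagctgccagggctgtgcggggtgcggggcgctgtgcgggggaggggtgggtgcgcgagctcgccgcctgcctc
Gabra2: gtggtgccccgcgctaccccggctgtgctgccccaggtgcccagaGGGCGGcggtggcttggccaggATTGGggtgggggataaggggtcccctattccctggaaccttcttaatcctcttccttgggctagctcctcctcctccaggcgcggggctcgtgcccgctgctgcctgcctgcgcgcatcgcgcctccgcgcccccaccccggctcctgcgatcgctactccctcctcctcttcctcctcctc

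The sequences differ in composition, from 35.6% G and C in Gabrg1 to 68.8% in Grin2c and 70.0% in Gabra2. The search covered the E-box CACGTG, the related CACGTT, the D-box TTATGTAA and the cyclic AMP element TGACGTCA on both strands, motifs through which clock and light signals are known to act. In these windows, 25 of the 38 genes had 32 promoters in the table. Of these promoters 15 belong to genes called as cycling by edgeR, and none of the 15 held any of these 4 motifs. Cycling genes without a promoter in the table, among them Grm4, Grin2a, Grin2b, Grik1 and Grina, were not searched. Among all 32 receptor promoters CACGTG was found in 1, that of Grin1, where 6.02% of all 32851 promoters hold it, and CACGTT in 2, both of Gabrb1, where 3.85% hold it. TTATGTAA and TGACGTCA were in none of the 32, and in 0.819% and 1.55% of all. GC boxes were in 17 of 32 receptor promoters and 32.7% of all, and CCAAT, a motif of 5 letters, in 12 of 32 and 33.8% of all. A match is a run of letters, and no match says only that these letters are not in this window.

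Markers of cell types also varied with time. The summed SCN neuron markers, of which several are clock-controlled neuropeptide genes, had a mean of 5514 ± 451 CPM at CT8 and 3908 ± 350 CPM at CT16 (SD, n = 6 each). General neuron markers had 2391 ± 114 CPM at CT0 and 2063 ± 107 CPM at CT12. Oligodendrocyte markers had between 1741 and 1978 CPM and astrocyte markers between 1943 and 2061 CPM as means by time. Markers of the surrounding hypothalamus had 209 ± 54.9 CPM at CT4 and 143 ± 40.8 CPM at CT12, those of ependyma and choroid plexus 154 ± 37.4 and 97.7 ± 19.7 CPM at these times, and endothelial markers 114 ± 14.6 CPM at CT16 and 93.8 ± 7.69 CPM at CT8. Microglia markers had 134 ± 20.4 CPM at CT0 and 109 ± 8.16 CPM at CT12. The part of these shifts in the receptor calls was not tested for the neuron, astrocyte, ependyma, endothelium and microglia lists. With the oligodendrocyte and surrounding hypothalamus lists as covariates 18 receptor genes were called, against 4890 genes of the whole table (31.0%), of which 17 were among the 20, and the calls of Grik3 and Grina were among those lost.

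Tested within each diet, 11 of the 38 genes cycled on the control diet (15.1% of all genes) and 9 on the MCD diet (16.1% of all genes). Grm4, Grin2c, Gabrg1, Gria2, Gabra2 and Grin2b were called on both. Grm4 peaked at CT18.62 ± 0.81 h with a range of 1.04 ± 0.22 log2 units on the control diet and at CT19.96 ± 0.79 h with 0.84 ± 0.17 on the MCD diet. Grin2c peaked at CT18.51 ± 0.97 h and CT17.65 ± 0.73 h, with ranges of 0.50 ± 0.13 and 0.63 ± 0.12 log2 units. Gabrg1 peaked at CT10.01 ± 0.87 h on control and CT7.56 ± 0.79 h on MCD, and Gabra2 at CT20.28 ± 0.98 h and CT17.90 ± 1.03 h. Fitted peaks were thus earlier on the MCD diet in Grin2c, Gabrg1 and Gabra2 and later in Grm4; the direct test of the cycle between diets is given in the next comparison. Gabrq, Grik1 and Grin2a were called on the control diet and not on the MCD diet, and Gabra5 and Gabre on the MCD diet and not on control, which is not by itself a difference between diets. Without the 3 libraries that stand apart Grin2b lost its call on both diets (edgeR adjusted p of 0.2 on control and 0.0574 on MCD). Its range on control in the edgeR fit was then 0.585 in place of 0.921 log2 units. Grik1 then lost its call on control (edgeR adjusted p = 0.0951). Leaving out 1 library ended the control call of Gabra2 and of Grin2a in 10 of 36 fits each and of Grin2b in 9, and the MCD call of Grin2b in 11, of Gabre in 13 and of Gabra5 in 9. The MCD call of Gria2 was lost without MCD CT0 replicate 3 (0.0573), and the control call of Grik1 without control CT8 library a or control CT20 replicate 3 (up to 0.0926). With the marker lists as covariates Grin2c lost its control call (0.0693) and Grin2b both (0.117 on control and 0.0965 on MCD), and limma-voom did not call Grin2b on MCD (0.0585). With exon-bin counts Grik1 (0.0511) and Grin2a (0.0549) lost their control calls and Gabra5 (0.132) and Gabre (0.0519) their MCD calls, and Gabre also with library totals in place of TMM (0.0783). Without the female libraries Gria2 lost its call on both diets (edgeR adjusted p of 0.0763 on control and 0.389 on MCD, where its range was 0.26 log2 units in place of 0.47), as did Grin2b (0.282, with a control range of 0.59 log2 units, and 0.292). Gabrg1 (0.0662), Gabra5 (0.121) and Gabre (0.142) then lost their MCD calls, so that 5 genes were called on that diet, of which 4 were among the 9, and without control CT8 library b 7 were called on the control diet.

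The difference in the 24 h cycle between diets was tested directly. By edgeR's quasi-likelihood test none of the 38 genes was called (0.0127% of all genes), and none had an unadjusted p under 0.05 (3.78% of all genes). DESeq2 and limma-voom also called none, with 0 and 1 genes at an unadjusted p under 0.05. Grik1 had an unadjusted p of 0.0874 with peaks at CT6.57 ± 0.96 h and CT2.95 ± 1.69 h. The smallest shift this test could detect was not determined.

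The mean level over all times was compared between diets, which asks whether removal of methionine and choline for 11 days shifted receptor transcripts in the SCN. By edgeR's quasi-likelihood test no receptor gene was called, against a background of 0.0635% of all genes (10 genes). At an unadjusted p under 0.05 there were 3 of 38 receptor genes, where 4.73% of all genes were at that level, and DESeq2 and limma-voom called 0 with 3 each at that level. The log2 difference (MCD minus control) was between -0.09 for Grin2c and 0.25 for Grm8, with a median of 0.02 over the 38 genes and 0.00 over all genes, and its standard error had a median of 0.07. The diets were thus close for most receptor genes on the scale of this error, without showing that they were equal.

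Receptor genes at an unadjusted p under 0.05 moved little between diets. For Gabbr1 the lowest, median and highest of 18 control libraries were 697, 832 and 1029 CPM and those of 18 MCD libraries 712, 790 and 884 CPM, a log2 difference of -0.07 ± 0.03 (SE; edgeR adjusted p = 0.836). Grin3a, an NMDA subunit that binds glycine and lowers calcium entry, had 29.7, 39.1 and 45.6 CPM in control libraries against 33.0, 41.5 and 52.7 CPM in MCD libraries (0.15 ± 0.06, edgeR adjusted p = 0.842). The ranges of both genes overlapped between diets.

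Each group held 2 males and 1 female, so sex could be compared over 24 male and 12 female libraries in the same model. By edgeR's quasi-likelihood test 5 of the 38 genes were called, against 9.89% of all genes, and all 5 were lower in females, where 4.98% of all genes were called lower. The female of each group carries replicate number 3, so sex and whatever else the number stands for cannot be told apart. Female libraries were also shallower, with a median of 44.3 M counts against 59.8 M in males, and all 3 libraries that stand apart are female. Without those 3 libraries 2 receptor genes were called, Gabbr1 and Grin1, and 186 in place of 1558 genes of the table.

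Gabbr1 had 697, 739 and 811 CPM in the lowest, median and highest female library and 742, 839 and 1029 CPM in males. The log2 difference (female minus male) was -0.19 ± 0.03 (SE; edgeR adjusted p = 0.000635), and -0.16 without the 3 libraries (0.0264). Every male library lay above the female median, while the ranges overlapped. Grin1, the obligatory NMDA subunit, had 145, 165 and 195 CPM in females and 160, 196 and 219 CPM in males, a difference of -0.21 ± 0.04 (edgeR adjusted p = 0.00303, and 0.0416 without the 3 libraries). Gabrb1 had 74.7, 93.9 and 123 CPM in females and 88.7, 117 and 164 CPM in males (-0.27 ± 0.07, edgeR adjusted p = 0.0195). Its call was lost without MCD CT4 replicate 3 (-0.239, edgeR adjusted p = 0.0573) and without the 3 libraries (-0.265, 0.0815).

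Of the 4 X-linked receptor genes, Gabrq and Gabre were also called lower in females. Gabra3 (log2 difference -0.003, edgeR adjusted p = 0.971) and Gria3 (0.028, 0.934) were not called. Gabrq had 31.1, 36.3 and 45.1 CPM in females and 33.7, 41.2 and 61.5 CPM in males (-0.19 ± 0.06, edgeR adjusted p = 0.0308). Gabre had 33.8, 45.1 and 57.3 CPM in females and 39.7, 48.9 and 63.2 CPM in males (-0.18 ± 0.06, edgeR adjusted p = 0.0441). Both calls were lost without the 3 libraries, where the difference was -0.18 for Gabrq (edgeR adjusted p = 0.0922) and -0.14 for Gabre (0.25), and with exon-bin counts (0.0753 and 0.116), and limma-voom did not call Gabre (0.0668). Leaving out 1 library ended the call of Gabrq in 6 and that of Gabre in 22 of the 36 fits. The number of receptor genes called fell to 3 without control CT0 or control CT4 replicate 3 and to 2 without MCD CT4 replicate 3, and rose to 10 without MCD CT16 replicate 3.

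Cell type markers moved with sex as well. The 7 astrocyte markers summed to 2172 ± 181 CPM in females and 1913 ± 109 CPM in males, and the 6 general neuron markers to 2124 ± 165 and 2267 ± 127 CPM (SD, n = 12 and 24). Markers of the surrounding hypothalamus had 190 ± 50.2 CPM in females and 153 ± 47.3 CPM in males, and those of ependyma and choroid plexus 135.5 ± 32.6 and 109.7 ± 30.2 CPM. The 14 SCN neuron markers summed to 4559 ± 939 CPM in females and 4678 ± 630 CPM in males. Of these, Vipr2 (log2 difference -0.19, edgeR adjusted p = 0.0117), Gad2 (-0.17, 0.0266), Six6 (-0.16, 0.0401), Slc32a1 (-0.15, 0.0169) and Six3 (-0.15, 0.0415) were called lower in females and Nms (0.28, 0.0143) higher. The part of astrocyte, ependyma, SCN neuron and general neuron content in the sex differences was not tested. With the oligodendrocyte and surrounding hypothalamus lists as covariates 7 receptor genes were called, including all 5, while the count over the whole table rose from 1558 to 2306 genes (14.6%). No receptor gene was called for a sex difference that depended on diet, by edgeR (0% of all genes), DESeq2 or limma-voom, and none had an unadjusted p under 0.05 by any of them.

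**Figure D5:**
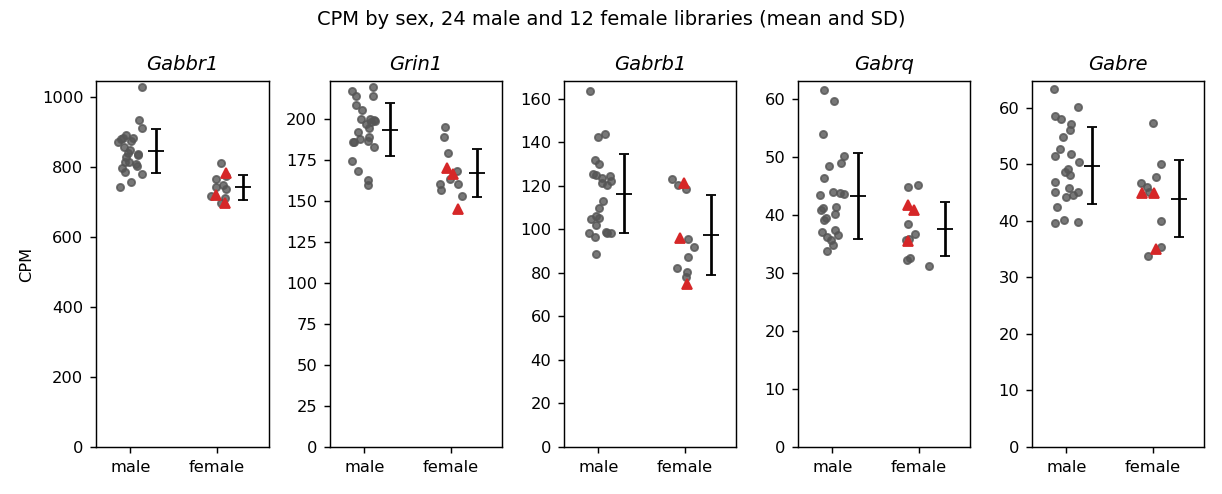
CPM of the 5 receptor genes called between sexes, 1 point per library, in 24 male and 12 female libraries, with the mean and SD at the right of each column. Red triangles are the 3 female libraries that stand apart from the others. Female means are lower in each panel, and the ranges of the sexes overlap.

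Genes that make, move or anchor these transmitters and receptors were read from 8 lists of 74 genes, of which 73 were in the table. Over both diets 32 of the 73 cycled by edgeR's quasi-likelihood test, with a median range of 0.23 log2 units, where 34.4% of all genes cycled and the median range over all genes was 0.27. By list these were 6 of 8 genes of GABA synthesis, packing, uptake and breakdown, 3 of 12 of the inhibitory scaffold, 4 of 6 GABA-B partners, 2 of 6 chloride transporters and their kinases, 4 of 9 of glutamate packing, uptake and synthesis, 8 of 16 AMPA and kainate auxiliary subunits, 5 of 14 of the excitatory scaffold and 0 of 2 delta receptors. Of the 32, 21 peaked in the subjective night and 11 (34.4%) in the subjective day, where 50.8% of all cycling genes peaked. Between diets 1 of the 73 was called, Glul.

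Glul encodes glutamine synthetase, the astrocyte enzyme that turns glutamate into glutamine. It was higher on the MCD diet by 0.25 log2 units over all times (edgeR adjusted p = 0.015), and its mean CPM over both diets went from 1035 at CT4 to 1698 at CT16 (edgeR adjusted p = 4.68e-09). Of the 8 cycling AMPA and kainate auxiliary subunit genes, the 4 with the smallest adjusted p peaked at night: Cnih3 at CT21.27 with a range of 1.11 log2 units (edgeR adjusted p = 4.55e-09), Cacng2 (stargazin) at CT16.87 with 0.55, Shisa9 at CT17.23 with 0.54 and Cacng7 at CT20.52 with 0.32. Of the other 4, named after their values were seen, Gsg1l peaked at CT20.32, while Shisa6 (CT7.74, range 1.23 log2 units, edgeR adjusted p = 0.00021), Neto2 (CT11.98) and Cnih2 (CT1.17) peaked by day. The postsynaptic scaffold genes Shank1, Shank2 and Shank3 peaked at CT18.83, CT19.38 and CT15.43 with ranges of 0.56, 0.86 and 0.46 log2 units. Kcnj9, a subunit of the potassium channel that GABA-B receptors open, peaked at CT19.12 (range 0.54), and Insyn1, an inhibitory synapse protein, at CT20.51 (0.68). In the GABA list, Gad1, the GABA-synthesising enzyme, peaked by day at CT4.95 (0.44), and Abat, the enzyme that breaks GABA down, at CT21.66 (0.28).

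The kit marks strand, but the strand setting of the counting is not given in the sources used here. Genes annotated on the opposite strand overlap several receptor genes in the GENCODE annotation used for lengths. Among them, Gabra4 and Gabrb1 overlap each other, and Grin1, Grin2b, Grin2c and Grm4 overlap predicted or antisense genes. Grin2d overlaps Kdelr1 and a predicted gene, and Gabra5 also overlaps genes on the opposite strand. Reads of such partners could be part of these genes' counts. When the gene counts were replaced by sums over the deposited exon-bin counts, 20 receptor genes again cycled over both diets, 18 of them among the 20 above, with Gabbr1 and Gabra5 lost. Between sexes 4 were then called, 3 of them among the 5.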

How the data were processed

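The SCN gene table held whole-number read counts per gene as the authors deposited them. Per the submitters' processing notes Trimmomatic, HISAT2, StringTie and DESeq2 were used with build GRCm39; no source used here gives versions, counting program, annotation or strand setting. Deposited exon-bin counts served as an alternative. Columns were matched to samples by name; 2 control males at CT8 share a header and are called a and b. Replicates are separate mice.

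Here edgeR 4.0.16 (R 4.3.3) fitted TMM-scaled counts of 36 libraries (quasi-likelihood, robust; filter at a minimum count of 10) with 12 diet and time groups and sex; 7 comparisons were tested, each adjusted over all 15759 genes at 0.05. Peaks and ranges with standard errors came from a least-squares fit to log2 CPM (prior count 2). Its terms were diet, sex, and a cosine and a sine of 24 h, without the diet term when fitted within a diet. Ranges under alternatives, medians of ranges and the values of pathway genes came from the edgeR fit. Levels used GENCODE M21 lengths, matched for 38 of 38 genes, and motifs RefSeq promoters. Alternatives were DESeq2 1.42.0, limma 3.58.1 (voom), other filters and scaling, exon bins, marker covariates and libraries left out. Only the tests of the mean diet difference and of the cycle over both diets were checked on simulated counts, drawn independently per library. The receptor genes, gene lists and marker lists were chosen with earlier results of these data known. Counts cover all 38 receptor genes, of which some are not reported here by name. Of the others, the text names every receptor gene called in a comparison, the highest and lowest per kb of each subfamily, and the 12 pathway genes of smallest adjusted p.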

Additional observations from a re-analysis of the deposited data

Results flagged for a closer look

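Of 9 symbols with the same prefixes that the gene table used above does not list, 4 had exon-bin counts above the 3 counts that a count of 0 allows in most libraries: Gabrr2 in 28 of 36, Gabrd in 27, Gabrr1 in 24 and Grin1os, which is not a receptor gene, in 33. Over 36 libraries Gabrr2, a rho subunit, had 759 exon-bin counts, with a median of 18.5 and a highest value of 66 per library. Gabrd, the delta subunit of extrasynaptic GABA-A receptors, had 656 (median 11, highest 58), and Gabrr1, another rho subunit, 541 (median 8, highest 74). Grin1os, an antisense gene that overlaps Grin1, had 555 (median 13, highest 40) and counts in all 36 libraries. For scale, Grm2 had the lowest total of the receptor genes in the gene table, 5509 counts. Their levels by diet, time and sex were not tested. Grin3b had 137 exon-bin counts and was above 3 counts in 15 libraries. Gabrp had 27, Gabra6 10, Grm6 7 and Gabrr3 0 counts in all, above 3 in 4, 2, 1 and 0 libraries. The gap test for a single outlying library was not run on groups of 3.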

How the results depend on the processing

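The number of receptor genes called stayed at 0 for the mean diet difference, the difference in cycle between diets and the dependence of sex on diet under every alternative run, including each library left out. For the cycle over both diets it was between 15 and 21 (15 with the replicate block and without 1 library at the lowest), for the control diet 2 with the replicate block and otherwise between 7 and 13, and for the MCD diet 5 without replicate 3 (the females) and otherwise between 6 and 9. For sex it was 2 without the 3 libraries that stand apart, an alternative added after seeing the data, and between 4 and 7 under the others. Leaving out 1 library gave 15 to 21, 7 to 12, 6 to 9 and 2 to 10 in these 4 comparisons.

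The replicate numbers were not taken to pair the libraries, since 65 of 176 pairs of same-numbered libraries correlated above 0.1, not all, and the lowest correlation was -0.1. A partial sharing by number was seen, with a median correlation of 0.13, 0.01 and 0.09 for numbers 1, 2 and 3. Of 34 libraries, 25 correlated best with their own number, a hint from the data. Sex was not removed from these values, and number 3 is the female of every group. The part of sex in this sharing was not tested. The replicate block was fitted on 34 numbered libraries in place of the sex term. It left out control CT8 libraries a and b, which have no number, so that control CT8 kept only its female library. The MCD diet lost no library. What the block and the missing libraries each did to the calls was not tested. Over both diets Grik3 (adjusted p = 0.0521), Grina (0.144), Grm7 (0.175) and Gabra5 (0.208) were among those lost with the block, and on MCD Gabra5 (0.0508). On control Gabrq (adjusted p = 0.0184) and Gria2 (0.016) were called with the block, and Grm4 (0.0634), Gabrg1 (0.129), Grin2b (0.157), Grin2c (0.186), Grin2a (0.274), Grik1 (0.313) and Gabra2 (0.43) were not.

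Of all genes, the count for mean diet was 10, and 48 by DESeq2, 19 by limma-voom, 25 with marker covariates, 6 without the 3 libraries, 4 with the replicate block and 7 to 17 without 1 library. For the control cycle it was 2378, and 1248 with the block; for the MCD cycle 2544, and 1687 without females; for the cycle difference 2, and 7 by DESeq2 or 1 under 4 alternatives; for sex 1558, and 186 without the 3 libraries or 771 to 2377 without 1; for sex by diet 0, and 1 by DESeq2. The cause was not tested.

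Of the receptor genes Grm2 had the fewest counts, 5509 over 36 libraries; how far depth or the number of libraries limits the calls was not tested. Peak times fitted per diet moved from the pooled value by more than its standard error for 9 of the cycling genes, and levels per kb depend on the transcript chosen. All values are transcript levels, not protein or current.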

Other observations

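Of the 38 receptor genes, 18 were also listed in the deposited liver counts, with CPM computed within that table and therefore set beside the SCN values only as a description. Grina had 86.2, 139 and 234 CPM in the lowest, median and highest liver library, against a median of 222 CPM in SCN. Gabbr2 had 24.9, 42.5 and 80.9 CPM in liver, against a median of 155 CPM in SCN. Gabbr1, the receptor gene with the highest level per kb in SCN, had a liver median of 4.90 CPM, and Grik5 one of 8.92 CPM. Per kb of the longest coding transcript, Gabbr2 had 4.33, 7.40 and 14.1 and Gabbr1 0.657, 0.934 and 1.75 CPM per kb in liver, ranges that did not overlap and lay in the reverse of their order in SCN. The other 14 had liver medians from 0 CPM (Grik2) to 1.90 CPM (Gabra3).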
